A study of Mus musculus with 6 samples.

Results

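The genes described here encode the 4 receptors of the Notch pathway (Notch1, Notch2, Notch3, Notch4), 4 of their ligands (Dll1, Dll4, Jag1, Jag2) and 2 transcription factors that the pathway induces (Hey1, Heyl). They were chosen by gene symbol and not by a rule on their measured values, though earlier results of these data were known. They are 10 of the 50600 genes in the deposited count table. All 10 passed the filter on low counts. The libraries hold RNA of the complete cardiac side population (SP), the heart cells that pump out the DNA dye Hoechst, sorted after cardiomyocytes and erythrocytes had been depleted. There were 3 libraries from wild-type mice (wt, C57BL/6NRj) and 3 from mice labelled flt3L-/- (strain C57BL/6Flt3Ltml/mx on a C57BL/6N background), which by their label lack the ligand of the receptor tyrosine kinase Flt3. The mice were 8 to 12 weeks old, and each library pooled the cells of 4 mice, so that a library is the mean of several hearts and of all cell types in the sort. A wt and an flt3L-/- sort were made on each of 3 dates, and the libraries are numbered 1, 2 and 3 by that date and called pairs.

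Notch receptors are cut by proteases when a ligand on a neighbouring cell pulls on them, and the freed intracellular part enters the nucleus, where it joins the DNA-binding protein Rbpj and switches on genes of the Hes and Hey families. In blood vessels, Dll4 and Jag1 on endothelial cells act on Notch1 and Notch4 of other endothelial cells and on Notch3 and Notch2 of pericytes and smooth muscle cells. The pathway is known for its part in arterial identity, in the choice between tip and stalk cells of a sprout and in the maturation of the vessel wall.

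Total counts lay between 24370913 and 31145519 per library, and values are given as CPM, read counts relative to the library total, scaled with edgeR's TMM factors. The detection limit of 3 counts corresponded to 0.109 to 0.127 CPM and covers counting error only. Flt3l, the targeted gene, had 8.67 to 12.1 CPM in wt and 12.4 to 14.4 CPM in the libraries labelled flt3L-/-, so its reads were not reduced there. Markers of endothelial cells summed to 8656 to 12474 CPM and were the largest marker list besides that of fibroblasts, with 3831 to 18966 CPM. Pericyte and smooth muscle markers summed to 274 to 901 CPM, macrophage and monocyte markers to 44.0 to 1774 CPM and cardiomyocyte markers to 101 to 184 CPM. None of these lists was at 0 in a library, and the sorts therefore held RNA of several cell types that can make Notch receptors or ligands. In such bulk samples, fewer cells of a type and less RNA per cell cannot be told apart.

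Among the 10 genes, Dll4 was the leading ligand, Hey1 the higher of the 2 target genes, and Notch4 and Notch1 the leading receptors in both genotypes. Hes1, a target gene outside the 10, had a higher mean level per kilobase than Hey1 (67.5) and is described below. Levels were compared between genes as CPM per kilobase of exon. On that scale, over all 6 libraries, Dll4 had 77.1 ± 25.1 (SD, n = 6), above 96.0% of all genes tested, and Hey1 had 62.9 ± 16.9 (SD, n = 6), above 95% of them. The level per kilobase was 25.3 ± 20.6 for Notch4 and 15.1 ± 3.72 for Notch1 (SD, n = 6). Dll1 followed with 13.96 ± 1.61 (SD, n = 6), and its level was the steadiest of the 10 genes. Jag1, Jag2 and Heyl lay close together, at 7.67 ± 5.42, 7.17 ± 1.68 and 6.84 ± 1.84 CPM per kilobase (SD, n = 6). The lowest levels were those of Notch2 with 4.08 ± 1.75 and Notch3 with 1.13 ± 0.60 CPM per kilobase (SD, n = 6), above 43.6% and 18.4% of the genes tested.

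**Figure D1:**
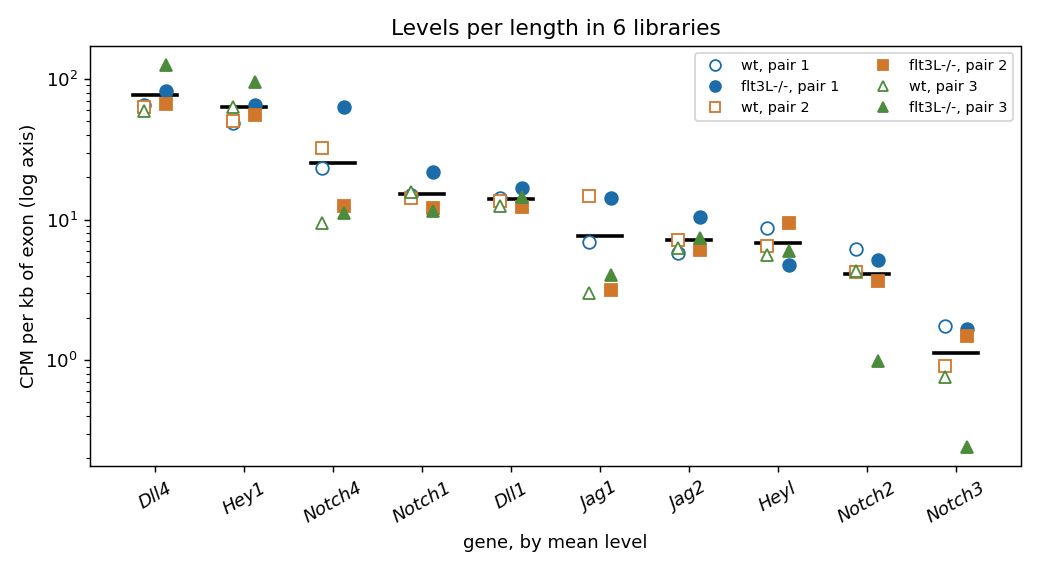
CPM per kilobase of exon (log axis) for the 10 genes, ordered by mean level, in the 6 libraries. Open symbols are wt, filled symbols flt3L-/-, shapes mark the pair and black bars the mean over 6 libraries. Dll4 (mean 77.1) and Hey1 (62.9) lie above the other genes, and the points of Notch4, Jag1, Notch2 and Notch3 spread most.

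Neighbours in this order overlapped in their ranges over libraries in every case. Hey1 was above Notch4, and Notch2 above Notch3, in 6 of 6 libraries, and Dll4 was above Hey1 in 5 of 6. Jag1 was above Jag2 in 3 of 6 libraries, so these neighbours had no fixed order. Among the receptors, Notch4 made up 31.1% to 68.8% of the summed level per kilobase and Notch1 23.8% to 52.2%, and Notch1 exceeded Notch4 in 2 of 6 libraries. Notch3 made up 1.01% to 4.98% of the receptors. Dll4 made up 64.3% to 83.0% of the 4 ligands in each library. With the length of the transcript that has the longest coding sequence in place of all exons, Hey1 (84.7) stood above Dll4 (79.3), and 6 of the 10 genes kept their place.

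The question of the genotype comparison is whether the RNA of these genes differs in the SP of mice labelled flt3L-/-. None of the 10 genes passed the test after adjustment, and their adjusted p-values in edgeR's quasi-likelihood test lay between 0.973 and 0.989. In edgeR's quasi-likelihood test, with the date of the sort as a term of the model, 0 (0%) of the 13475 genes tested had a Benjamini-Hochberg adjusted p under 0.05, 484 (3.59%) had an unadjusted p under 0.05, and DESeq2 called 21 genes, none of them a Notch gene. Of the 10 genes, 1 had an unadjusted p under 0.05 (Hey1). The fitted log2 fold change was above 0 for 5 and below 0 for 5, with a median of 0.026 against −0.00027 over all genes tested. Higher values in 3 of 3 pairs were found for 2 of the 10 (Dll4, Hey1), where 14.2% of all genes showed this. A lower value in 3 of 3 pairs was found for 1 (Notch2), where 11.5% of all genes did.

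**Figure D2:**
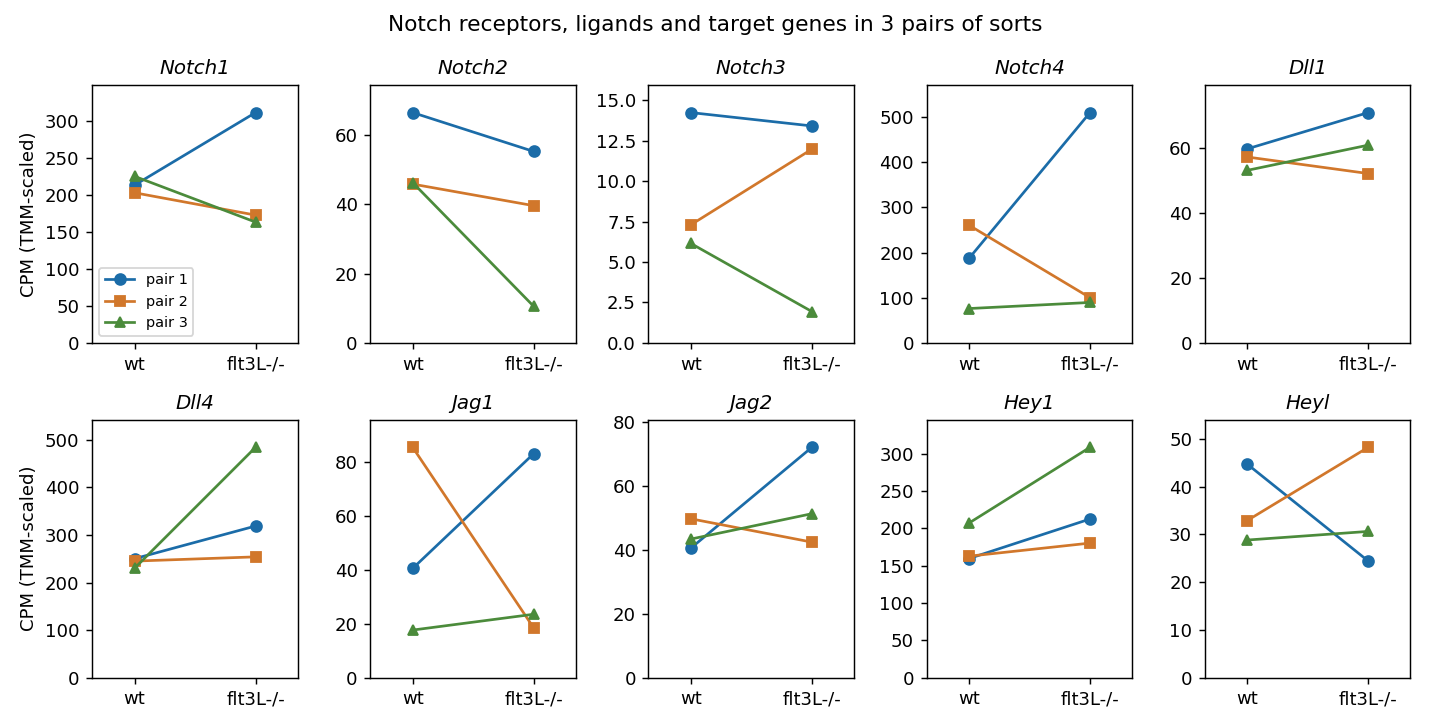
CPM (linear axis from 0) of each gene in the wt and the flt3L-/- library of pairs 1, 2 and 3, with a line joining the libraries of 1 sorting date. Dll4 and Hey1 rise and Notch2 descends along 3 of 3 lines, whereas the lines of Notch4 and Jag1 cross.

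Dll4 (ENSMUSG00000027314, chromosome 2 of GRCm38, 119325784 to 119335962, plus strand) encodes the ligand of arterial endothelium and of tip cells. The wt libraries of pairs 1, 2 and 3 had 250.1, 245 and 229.9 CPM of Dll4, and the flt3L-/- libraries 319, 254 and 484 CPM. The wt values were close together, and each of them was below each flt3L-/- value, a separation of the groups that 6.45% of all genes tested showed in either direction. The means were 242 ± 10.5 CPM in wt and 352 ± 119 CPM in flt3L-/- (SD, n = 3). The fitted log2 fold change was 0.49 (SE 0.23, 95% interval −0.12 to 1.10), which is 1.41-fold, and edgeR's quasi-likelihood test gave an adjusted p of 0.973. Within pairs the log2 differences were 0.35, 0.051 and 1.07, so pair 3 held the greater part, and without pair 3 the log2 fold change was 0.20. Gm14207, a transcript of the opposite strand with 14.2 to 27.9 CPM, shares 5.56% of the exon bases of Dll4, and the unstranded libraries cannot separate such reads.

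Hey1 (ENSMUSG00000040289, chromosome 3, 8663359 to 8667256, minus strand) encodes a transcriptional repressor that Notch induces in endothelial cells. It had 159.6, 163 and 207 CPM in wt and 213, 180.4 and 309 CPM in flt3L-/- in pairs 1, 2 and 3. The flt3L-/- library was the higher of each pair, while the groups overlapped because wt of pair 3 lay above flt3L-/- of pair 2. Means were 177 ± 26.6 and 234 ± 66.8 CPM (SD, n = 3), with a log2 fold change of 0.38 (SE 0.14, 95% interval 0.0043 to 0.75), or 1.30-fold. In edgeR's quasi-likelihood test the unadjusted p was 0.0483 and the adjusted p 0.973. The unadjusted p ranged from 0.0407 to 0.227 over the 13 alternatives, and was above 0.05 in each of the fits without 1 pair. Heyl (ENSMUSG00000032744, chromosome 4, 123233556 to 123249875, plus strand), a related repressor found in mural cells, had 44.7, 32.9 and 28.8 CPM in wt and 24.4, 48.2 and 30.6 CPM in flt3L-/-. It was lower in pair 1, higher in pair 2 and nearly level in pair 3 (log2 differences −0.87, 0.55 and 0.087), and its fitted log2 fold change was −0.07 (SE 0.31, 95% interval −0.87 to 0.72).

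Dll4 and Hey1 were also read against the endothelial markers, and this scaling was chosen once their values were known. The summed endothelial markers had log2 differences of 0.49, −0.25 and 0.16 in the 3 pairs, and 10 of the 12 markers had a fitted value above 0, of which 0 had an unadjusted p under 0.05. Over all 13475 genes tested, 6733 were above 0 and 3.59% had such a p. Dll4 amounted to 2.89%, 2.25% and 2.06% of that sum in wt and to 2.63%, 2.77% and 3.88% in flt3L-/-. Relative to the markers Dll4 was thus higher in 2 of 3 pairs, and so was Hey1, with log2 differences of −0.073, 0.40 and 0.42. Divided by the sum of the arterial endothelial markers instead, Dll4 was higher in 2 of 3 pairs (log2 differences −0.035, 0.36 and 1.37) and Hey1 in 3 of 3 (0.029, 0.45 and 0.87). The part of cell composition in either difference was not tested.

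Of the other ligands, Dll1 (ENSMUSG00000014773, chromosome 17, 15367354 to 15376872, minus strand), a ligand with a role in arterial endothelium and in lymphoid development, had 59.6, 57.2 and 53.0 CPM in wt and 70.8, 52.1 and 60.8 CPM in flt3L-/-. Its values spanned 1.36-fold over the 6 libraries, a smaller spread than that of 75.4% of the 9306 genes with at least 10 CPM, and its log2 fold change was 0.10 (SE 0.14, 95% interval −0.27 to 0.48). The lincRNA A930024N18Rik of the opposite strand shares 20.6% of the exon bases of Dll1 and had 7.71 to 11.2 CPM. Jag2 (ENSMUSG00000002799, chromosome 12, 112907819 to 112929776, minus strand), a further Jagged ligand, had 40.5, 49.7 and 43.4 CPM in wt and 72.1, 42.4 and 51.3 CPM in flt3L-/-. It was highest in flt3L-/- of pair 1, the other 5 libraries lay close together, and the log2 fold change was 0.28 (SE 0.24, 95% interval −0.33 to 0.90). Without pair 1 the log2 fold change of Jag2 was 0.0063, and without pair 2 it was 0.52, while that of Dll1 ranged from 0.031 (pair 1 left out) to 0.20 (pair 2 left out).

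Jag1 (ENSMUSG00000027276, chromosome 2, 137081456 to 137116644, minus strand) encodes the ligand through which endothelial cells act on the vessel wall. Its values were 40.4, 85.2 and 17.6 CPM in wt and 82.9, 18.4 and 23.5 CPM in flt3L-/-. Pair 1 was higher in flt3L-/-, pair 2 was lower by 2.21 on the log2 scale and pair 3 differed by 0.41, so the genotypes overlapped over nearly their whole range. The log2 fold change was −0.19 with an interval of −2.03 to 1.65 (SE 0.71), and it was 0.71 without pair 2. This interval holds changes of more than 3-fold in both directions, and a difference of that size was not detectable for Jag1 in these libraries.

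**Figure D3:**
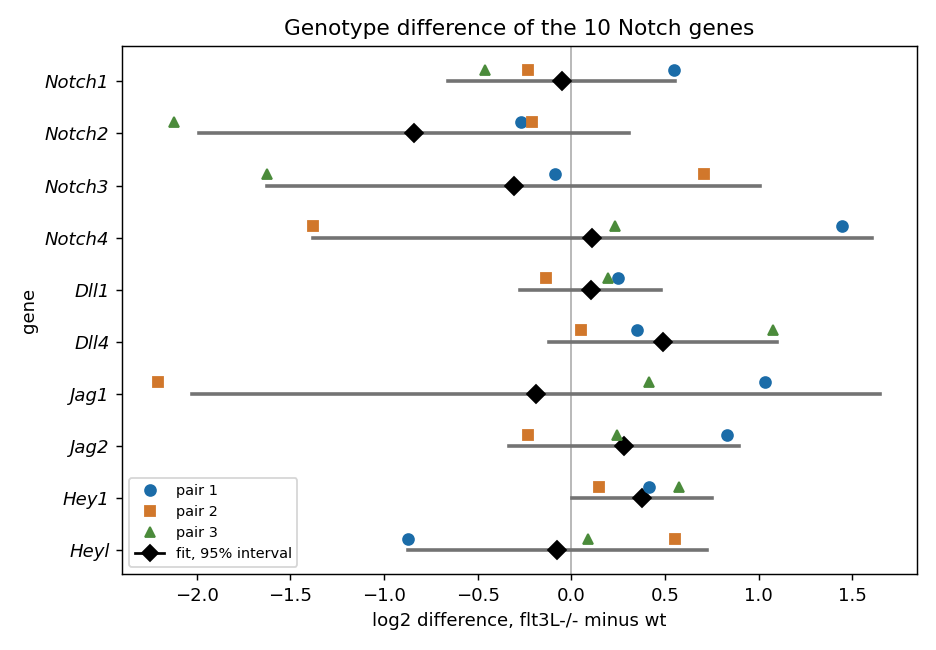
Log2 difference of flt3L-/- minus wt for the 10 genes. Diamonds and grey bars are the fitted log2 fold change and its 95% interval, and coloured symbols the differences within pairs 1, 2 and 3. The interval of Hey1 (0.0043 to 0.75) lies just above 0, and those of Jag1 and Notch4 are the widest.

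Among the receptors, Notch1 (ENSMUSG00000026923, chromosome 2, 26457903 to 26516663, minus strand), the main receptor of endothelial cells, had 213, 203 and 225 CPM in wt and 311, 173 and 163 CPM in flt3L-/-. The wt values lay within a narrow range, and the flt3L-/- values lay above it in pair 1 and below it in pairs 2 and 3. Its log2 fold change was −0.05 (SE 0.23, 95% interval −0.66 to 0.55). The sign is not settled, since the mean CPM was 214 ± 11.1 in wt and 216 ± 82.9 in flt3L-/- (SD, n = 3), and without the date as a covariate the log2 fold change was 0.013. Notch4 (ENSMUSG00000015468, chromosome 17, 34564268 to 34588503, plus strand), a receptor made mainly by endothelial cells, had 187, 261 and 76.1 CPM in wt and 510.0, 100.2 and 89.6 CPM in flt3L-/-. The highest value was in flt3L-/- of pair 1 and the lowest in wt of pair 3, 6.70-fold apart, and the log2 differences within pairs were 1.45, −1.38 and 0.23. The fit gave 0.11 (SE 0.57, 95% interval −1.38 to 1.61).

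Notch2 (ENSMUSG00000027878, chromosome 3, 98013527 to 98150361, plus strand), a receptor of smooth muscle and of many other cells, had 66.5, 45.9 and 46.3 CPM in wt and 55.3, 39.6 and 10.6 CPM in flt3L-/-. The library of pair 3 labelled flt3L-/- stood below the other 5, which overlapped between genotypes. That library also had the highest share of mitochondrial reads (1.75%). Its macrophage and monocyte markers summed to 101 CPM against 1774 CPM in wt of the same pair, but wt of pair 1 was lower still with 44.0 CPM. In pair 3 the log2 difference was −4.14 for these markers and −2.44 for the lymphocyte markers. For both sums wt of pair 3 was the highest library (1774 and 148 CPM). In that library Lyz2 alone had 1527 CPM of the first sum and Nkg7 92.9 CPM of the second, so these genes weigh most. The markers did not move alike, as the log2 differences in pair 3 were −4.50 for Lyz2, −0.37 for C1qa and 0.086 for C1qb. Among the lymphocyte markers, Nkg7 differed by −3.14, whereas Ms4a1 had 0.447 CPM in wt and 0.554 CPM in flt3L-/- of pair 3. The part of these cells in the value of Notch2 was not tested. The means were 52.9 ± 11.8 and 35.2 ± 22.7 CPM (SD, n = 3), and the log2 fold change was −0.84 (SE 0.44, 95% interval −1.99 to 0.31) with an adjusted p of 0.973 in edgeR's quasi-likelihood test. Within pairs Notch2 differed by −0.27, −0.21 and −2.12 on the log2 scale, and the log2 fold change was −0.24 without pair 3. Notch3 (ENSMUSG00000038146, chromosome 17, 32120820 to 32166852, minus strand), the receptor of pericytes and smooth muscle cells, had 14.2, 7.29 and 6.15 CPM in wt and 13.4, 11.97 and 1.94 CPM in flt3L-/-, from 49 to 368 reads. It too was lowest in flt3L-/- of pair 3, but higher than wt in pair 2, and the log2 fold change was −0.31 (SE 0.51, 95% interval −1.62 to 1.01), with 0.31 without pair 3.

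Notch2 and Notch3 were compared with the marker lists from library to library. Over the 6 libraries, the Pearson correlation of log2 CPM between Notch2 and the summed pericyte and smooth muscle markers was 0.88, and it was 0.87 for Notch3. With the fibroblast markers it was 0.83 for each, and with the venous endothelial markers 0.80 for Notch2 and 0.85 for Notch3. The fibroblast values show that the likeness was not limited to markers of the vessel wall. With the arterial endothelial markers the correlation was 0.61 for Notch2 and 0.48 for Notch3. Negative values were found with the general endothelial markers (−0.54 and −0.63) and with the cycling markers (−0.73 and −0.89). These are descriptions over 6 libraries that share depth, genotype and sorting date, and flt3L-/- of pair 3 was the lowest for both receptors and for the pericyte, fibroblast and venous endothelial sums. Of the 9 pericyte and smooth muscle markers, 8 had a fitted log2 fold change below 0 and 2 an unadjusted p under 0.05, and of the 8 fibroblast markers 8 were below 0 and 3 had such a p. Over all 13475 genes tested, 6742 were below 0 and 3.59% had such a p. The pericyte and smooth muscle sum was 442 to 901 CPM in wt and 274 to 554 CPM in flt3L-/-, and its log2 differences within the 3 pairs were −0.70, 0.16 and −0.85. Divided by this sum, Notch2 was higher in flt3L-/- in pair 1 and lower in pairs 2 and 3, where it made up 10.4% and 9.37% in wt and 8.03% and 3.85% in flt3L-/-. What part these cells had in the values of Notch2 was not tested.

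**Figure D4:**
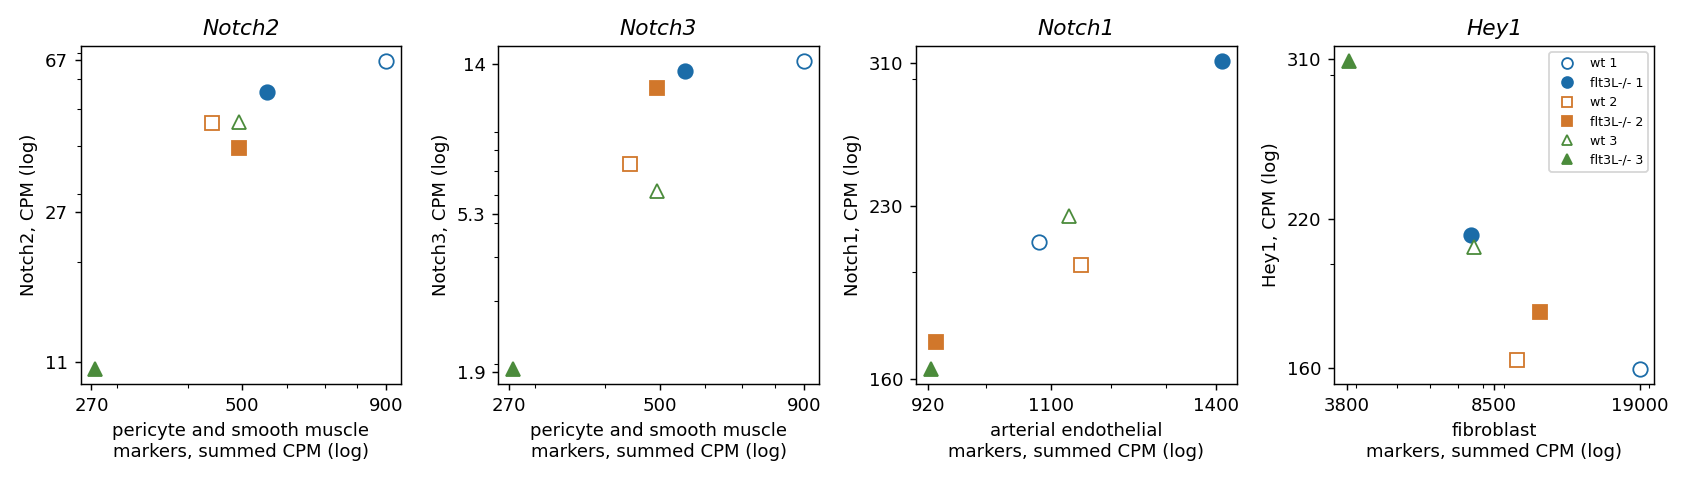
CPM of Notch2, Notch3, Notch1 and Hey1 against the summed CPM of a list of cell type markers, both on log axes, with 1 point per library. Open symbols are wt, filled symbols flt3L-/-, and shapes mark the pair. The correlations of log2 values are 0.88, 0.87, 0.97 and −0.92 over 6 libraries. With the general endothelial markers, not drawn here, that of Notch1 is 0.24.

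Notch1 followed the summed arterial endothelial markers with a correlation of 0.97 over the 6 libraries, and as a share of their sum it stayed between 17.7% and 22.1%. Fbln5 alone had 434 to 651 CPM of that sum, which was 923 to 1411 CPM over 7 markers. Values set against the arterial sum therefore weigh Fbln5 most, also those of Dll4 and Hey1 given above. In the venous endothelial sum of 648 to 1074 CPM, Vcam1 had 261 to 632 CPM. The correlation of Notch1 was 0.78 with the venous and 0.24 with the general endothelial markers. As a share of the general endothelial sum, Notch1 ranged from 1.31% to 2.57%. Hey1 ran against the fibroblast markers (−0.92) and with the general endothelial markers (0.75), but its correlation was −0.25 with the arterial and −0.52 with the venous endothelial markers, whereas Heyl ran against the endothelial markers (−0.91). In the fibroblast sum of 3831 to 18966 CPM, Dcn alone had 2413 to 10551 CPM, so values set against that sum weigh Dcn most. Dll4 and Hey1 rose and fell together with a correlation of 0.88 over 6 libraries. Notch2 was correlated with Notch3 at 0.92 and ran against Hey1 and Dll4 at −0.87 and −0.85. These points share library and depth, and 5.77% of the 9297 other genes with at least 10 CPM had a correlation above 0.9 with Hey1. Above 0.9 with Notch2 were 3.59% of them and with Notch3 2.32%, so the 0.92 between these receptors was not particular to them. The 0.88 with Dll4 is below that limit, and how common negative values of this size are was not counted over all genes.

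Notch4 and Jag1 rose and fell together across libraries without regard to genotype, with a correlation of 0.94 over 6 libraries. Both were highest in wt of pair 1, flt3L-/- of pair 1 and wt of pair 2, and lower in flt3L-/- of pair 2 and both libraries of pair 3. The same libraries were the highest for Hes1, the classical Notch target and repressor, with 157, 211 and 45.7 CPM in wt and 250.1, 92.4 and 68.5 CPM in flt3L-/-. Pathway genes correlated with Notch4 above 0.9 over the 6 libraries included the target genes Hes1 and Nrarp and the co-repressors Ctbp1, Ncor1, Spen and Tle1, which act with Rbpj or with Hes proteins to keep genes silent. Hes1, Nrarp, Ctbp1, Ncor1 and Spen were also correlated with Jag1 above 0.9. Of 9297 genes with at least 10 CPM, 3.72% exceeded this value with Notch4 and 3.56% with Jag1, and the examples named were chosen after their values were seen. Further target genes did not follow Notch4, with correlations of −0.33 for Hey1, −0.35 for Heyl, −0.54 for Hes6, 0.22 for Hey2 and 0.42 for Hes7. Among the co-repressors, Hdac1 (−0.81), Hdac2 (−0.47) and Cir1 (−0.31) ran the other way, and Ctbp2 (0.17) and Sin3a (0.37) stayed far below 0.9.

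These genes ranged widely over the libraries. Ctbp1 went from 32.3 CPM in wt of pair 3 to 180.2 CPM in flt3L-/- of pair 1, and Ncor1 from 47.0 to 167 CPM between the same libraries. Spen ranged from 15.3 CPM in wt of pair 3 to 50.1 CPM in wt of pair 2. Nrarp, a feedback inhibitor of Notch, ranged from 35.6 to 137 CPM, but the antisense gene Gm38287 shares 79.4% of its exon bases. Psenen, a subunit of the gamma-secretase that cuts Notch, ran the other way, with a correlation of −0.93 with Notch4 and a range of 8.89 to 13.5 CPM.

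The 3 libraries with the high values also had the fewest genes with a count, 25739 to 26723 against 27897 to 29594, and the lowest share of mitochondrial reads, 0.479% to 0.872% against 1.06% to 1.75%. The part of RNA quality or library preparation in the common pattern of Notch4, Jag1 and Hes1 was not tested. In edgeR's test of the date terms, 0 of 13475 genes (0%) had an adjusted p under 0.05 and 1116 (8.28%) an unadjusted p under 0.05, while 0 of the 10 Notch genes did.

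**Figure D5:**
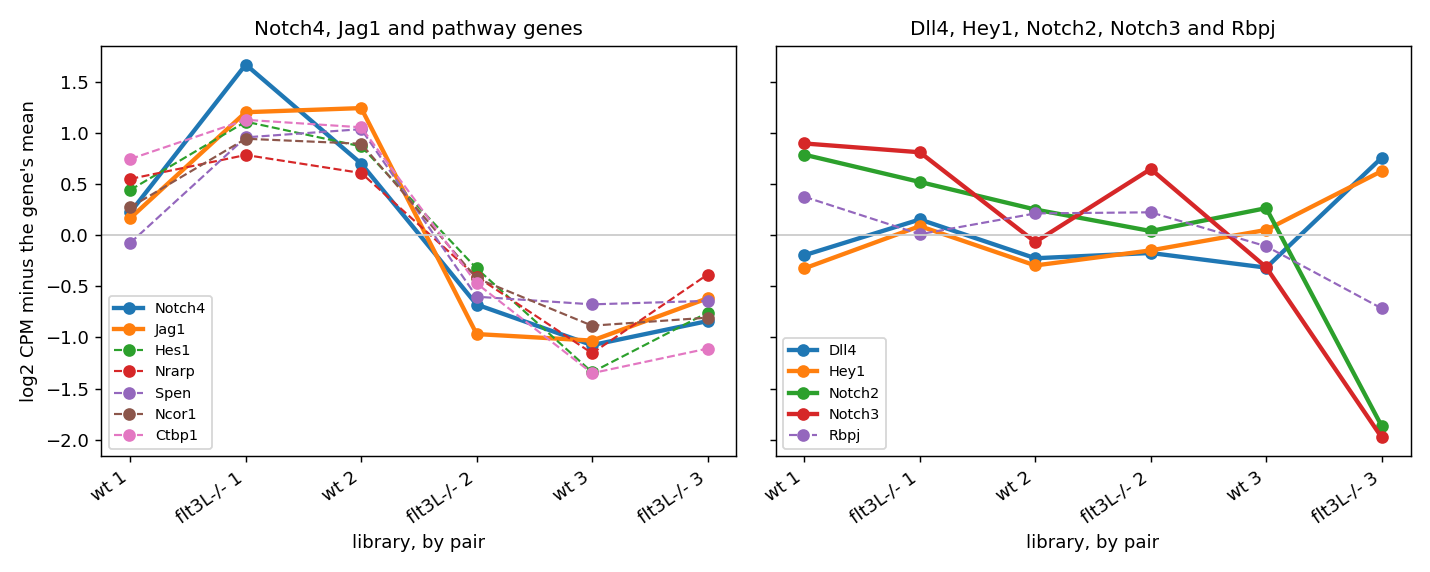
Log2 CPM minus the mean of the gene over 6 libraries, for Notch4 and Jag1 with 5 other pathway genes (left) and for Dll4, Hey1, Notch2, Notch3 and Rbpj (right). Thick lines are the Notch genes described here and dashed lines other genes of the pathway. On the left, flt3L-/- of pair 2 and both libraries of pair 3 lie below the mean for all 7 genes, and on the right Notch2 and Notch3 are lowest and Dll4 and Hey1 highest in flt3L-/- of pair 3.

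The promoters of Notch4 and Jag1 are shown because these genes moved together, and those of Notch2 and Notch3 for the same reason. They were taken from RefSeq on GRCm38.p6 as the 250 bases before the start of a transcript. Bases past another annotated start were left out of the printed stretches. Capitals mark the GC box GGGCGG, the motif of Sp family factors, on either strand.
Notch4, chr17:34564045-34564267, plus strand: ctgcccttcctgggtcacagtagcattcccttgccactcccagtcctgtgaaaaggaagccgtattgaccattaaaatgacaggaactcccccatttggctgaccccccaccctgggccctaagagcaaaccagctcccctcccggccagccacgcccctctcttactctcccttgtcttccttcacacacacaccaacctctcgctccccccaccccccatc
Jag1, chr2:137116645-137116770, minus strand: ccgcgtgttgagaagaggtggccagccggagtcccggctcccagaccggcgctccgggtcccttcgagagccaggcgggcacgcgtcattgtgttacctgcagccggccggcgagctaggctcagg
Notch2, chr3:98013288-98013526, plus strand: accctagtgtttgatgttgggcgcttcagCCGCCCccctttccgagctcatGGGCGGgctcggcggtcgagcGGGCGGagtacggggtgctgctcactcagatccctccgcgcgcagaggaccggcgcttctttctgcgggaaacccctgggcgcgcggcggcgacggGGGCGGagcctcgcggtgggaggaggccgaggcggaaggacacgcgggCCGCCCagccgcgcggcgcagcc
Notch3, chr17:32166891-32167140, minus strand: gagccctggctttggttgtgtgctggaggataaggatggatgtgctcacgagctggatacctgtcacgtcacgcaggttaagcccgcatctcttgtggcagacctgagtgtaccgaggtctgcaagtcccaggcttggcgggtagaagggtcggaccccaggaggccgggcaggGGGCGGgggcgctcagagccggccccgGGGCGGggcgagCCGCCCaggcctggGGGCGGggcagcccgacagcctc
Dll4, chr2:119325534-119325783, plus strand, shown as the ligand with the highest level: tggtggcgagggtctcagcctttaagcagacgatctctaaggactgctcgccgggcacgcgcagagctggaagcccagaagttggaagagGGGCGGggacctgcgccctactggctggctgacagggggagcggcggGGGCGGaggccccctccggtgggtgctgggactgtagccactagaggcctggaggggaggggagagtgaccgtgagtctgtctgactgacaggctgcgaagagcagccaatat

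No GC box lay in the stretches of Notch4 and Jag1, whereas Notch2 had 5, Notch3 had 4 and Dll4 had 2, at 160 and 113 bases before its start. A RefSeq promoter was found for 8 of the 10 genes, all but Hey1 and Heyl, in 9 windows. Motifs were counted over the full 250 bases of each window, also past another annotated start. Of the 9 windows, 5 held the GC box, against 32.7% of 32851 windows over 27025 genes. Among the 5 were those of Notch1 and Jag2, where 0 bases lay before every annotated start, so their GC boxes lie inside the annotated gene. The core of the Rbpj site, TGGGAA on either strand, was in 0 of the 9 windows and in 21.6% of all windows. The E-box CACGTG, which Hes and Hey proteins can bind, was in 0 of 9 against 6.02%, and the AP-1 motif TGANTCA in 1 of 9, that of Dll1, against 6.75%. These matches describe letters in a window of 250 bases and say nothing of binding.

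The rest of the pathway was read from 8 lists with 58 genes, of which 52 were tested. After adjustment 0 of the 52 passed edgeR's quasi-likelihood test, and 1 had an unadjusted p under 0.05, where 3.59% of all genes did. Fitted log2 fold changes were above 0 for 28 and below 0 for 24, with a median of 0.013, and 6 were higher and 4 lower in 3 of 3 pairs, where 14.2% and 11.5% of all genes were. The gene with the small p was Dtx4, an E3 ligase that acts in the turnover of the receptors, with 15.3, 17.2 and 7.19 CPM in wt and 10.6, 11.9 and 3.88 CPM in flt3L-/-. Dtx4 was the lower of each pair in flt3L-/-, but the groups overlapped because pair 3 was low in both genotypes. Its log2 fold change was −0.65 (SE 0.20, unadjusted p = 0.0246 in edgeR's quasi-likelihood test, adjusted p = 0.973).

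The next smallest p-values belonged to Rbpj, the DNA-binding partner of the receptors, and to the co-repressor Ctbp2. Rbpj had 43.6, 39.0 and 31.2 CPM in wt and 33.8, 39.3 and 20.5 CPM in flt3L-/-, and a log2 fold change of −0.32 (SE 0.18). It was lowest in flt3L-/- of pair 3, as Notch2 and Notch3 were, and it was correlated above 0.9 with both. Of 9297 genes with at least 10 CPM, 3.59% had such a correlation with Notch2 and 2.32% with Notch3. The correlation of Rbpj with Hey1 was −0.98. Ctbp2 had a log2 fold change of 0.28 (SE 0.16). The highest levels per kilobase in the lists were those of Hes1 (67.5), of the protease Adam10 (54.9), which makes the first cut after ligand binding, and of Numb (54.1), an inhibitor of Notch. Their log2 fold changes were 0.035 (SE 0.42), 0.0082 (SE 0.20) and 0.098 (SE 0.15), each smaller than its error.

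By list, gamma-secretase and cleavage had 8 of 10 tested genes with a fitted log2 fold change above 0 and a median of 0.15, and 3 were higher and 1 lower in 3 of 3 pairs, beside 14.2% and 11.5% of all genes. Of all 13475 genes tested, 6733 had a fitted log2 fold change above 0. The nuclear complex and its co-activators had 3 of 8 above 0 with a median of −0.13. Co-repressors had 4 of 10 above 0 (median −0.04), receptor trafficking and turnover 3 of 9 (median −0.03), other target genes 4 of 5 (median 0.04), glycosylation of the receptors 3 of 5 (median 0.10) and ligand endocytosis 3 of 5 (median 0.04). None of the 4 other ligands, Dll3, Dlk1, Dlk2 and Dner, passed the filter on low counts. Dll3 had 1 read in 1 library and 0 in the other 5.

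The genes whose log2 CPM was most like each Notch gene over the 6 libraries were sought among 9297 genes with at least 10 CPM. They were Syne1 for Notch1 (correlation 0.988), Phf12 for Notch2 (0.996), Srebf1 for Notch3 (0.994) and Mlxip for Notch4 (0.998). For the ligands they were Lsm14a for Dll1 (0.974), Mcm3 for Dll4 (0.994), Rcbtb1 for Jag1 (0.995) and Tusc2 for Jag2 (0.980), and for the targets Hnrnpf for Hey1 (0.996) and Uap1l1 for Heyl (0.992). For each Notch gene, 12 to 172 genes exceeded a correlation of 0.95 over these 6 libraries, so that such a likeness was not particular to the gene named.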

How the data were processed

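The RNA libraries were unstranded (SMART-Seq v4) and were sequenced from sorted cardiac SP cells. The authors mapped single reads of 81 bases to mm10 with STAR 2.5.2a, kept reads with up to 10 hits, and counted reads that start in an exon of Ensembl release 88, and the deposited values are those counts per gene, without normalization. From the counts, the 13475 of 50600 genes that are protein-coding and exceeded 1 CPM in 2 or more libraries were tested in edgeR 4.0.16 on R 4.3.3 with TMM factors, the sorting date as a covariate and glmQLFTest (legacy = TRUE), and p-values were adjusted after Benjamini-Hochberg. Prior counts of 2 were used for differences within pairs. Gene positions came from a GENCODE annotation of GRCm38, which held 50376 of the genes. Libraries of 1 date were paired as the study's methods and the date labels state. After removal of group means, libraries of the same date were correlated at 0.180, 0.104 and 0.116 across genes, and those of different dates at −0.354 to 0.247, so that these values do not single out the date pairs. Total counts of 24370913 to 31145519 put 3 counts at 0.109 to 0.127 CPM. The spread between libraries is that between pools of 4 mice. The genes and lists were chosen with earlier results of these data known. Named genes are the 10 Notch genes, the 3 pathway genes with the highest level per length and the 3 with the smallest p, and for each Notch gene the gene most correlated with it. The other pathway genes named with Notch4 and Jag1, and the scaling by marker sums, were chosen after their values were seen, and 1 gene of the lists is not reported here by name. Alternatives were other normalizations, filters and biotypes, DESeq2 1.42.0, limma 3.58.1 (voom), edgeR's other mode, no date covariate, and each pair left out.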

Additional observations from a re-analysis of the deposited data

How the results depend on the processing

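None of the 10 Notch genes was called under any alternative. Over all genes, DESeq2 called 21 and every other alternative 0. The number of Notch genes with an unadjusted p under 0.05 was 1 (Hey1), beside 3.59% of all genes tested. It was 0 with library size only, filterByExpr, limma-voom and no replicate block, beside 1.94% to 3.77% of all genes. With DESeq2 it was 2 (Notch2, Hey1), beside 4.76% of all genes. Without 1 pair it was 0 to 2, beside 1.87% to 7.47% of all genes. The 2 were Dll4 and Jag1 without pair 2, where the share was 7.47%. Without 1 pair, 0 to 112 genes differed between dates, with 112 without pair 2. The log2 fold changes of Notch2, Dll1, Dll4, Jag2 and Hey1 kept their direction in 13 of 13 alternatives, but not their size. Without 1 pair they were −1.21 to −0.24 for Notch2, 0.031 to 0.20 for Dll1, 0.20 to 0.69 for Dll4, 0.0063 to 0.52 for Jag2 and 0.28 to 0.47 for Hey1. That of Notch1 was 0.013 with no replicate block and −0.35 to 0.16 without 1 pair. The log2 fold change was −0.57 to 0.82 for Notch4, −0.41 to 0.32 for Heyl, −0.90 to 0.71 for Jag1 and −0.87 to 0.31 for Notch3 without 1 pair, and it was −0.57 for Notch4 and 0.32 for Heyl without pair 1, 0.020 for Notch1 and 0.71 for Jag1 without pair 2, and 0.16 for Notch1 and 0.31 for Notch3 without pair 3. The fits without 1 pair hold fewer samples, and the cause of the other changes was not tested. With transcript lengths, 6 of the 10 genes kept their place in the order of levels. The test rested on 3 pairs and 2 residual degrees of freedom, and the lowest count of a Notch gene was 49.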
